A study of Homo sapiens with 12 samples.

Results

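The comparison described here set 3 arrays of heat shocked A549 monolayers against 3 arrays of untreated ones, 6 of the 12 arrays of the series. The arrays were chosen by their titles, which name the treatment, and all 18132 genes that could be read through a probe set with a single gene symbol were compared. A549 is a human lung adenocarcinoma line often used as a stand-in for alveolar type II epithelium. All cells grew on uncoated plastic in serum-containing medium, which all 4 groups shared. The groups were untreated, heat shocked for 2 h, multiply wounded and kept for 4 h, and heat shocked before such wounding, with 3 arrays each. The series asked how a heat shock alters gene expression in wounded lung epithelium, and its title names FGF1. The temperature, the collection time of the monolayers given heat alone and the number of cultures behind each group were not given in the labels. The p-values below therefore measure only the spread between these samples, which may be technical.

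Heat unfolds proteins, and the chaperones that bind them are drawn away from the transcription factor HSF1, which then forms trimers and binds heat shock elements, inverted repeats of the letters GAA, near its target genes. The best known targets are the HSP70, HSP90, HSP40 and small heat shock protein families, which refold proteins or hold them in solution. Heat also slows transcription of many other genes, halts translation of most messages and arrests cells in the cycle, and it switches on signalling kinases that raise early response transcription factors.

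Levels are log2 values of 1 probe set per gene, so a difference of 1 is a change of 2-fold. The median level of the 12 arrays lay between 5.3 and 5.32. Replicates 1 and 2 of each group share a description code that begins with S2 and replicate 3 has one that begins with S3, and the labels do not say what the codes stand for. The heat shocked replicates 1 and 2 differed from each other by an SD of 0.158 over all genes, and from replicate 3 by 0.200 and 0.213. In control the 3 pairs differed by 0.162 to 0.179. The 333 measured olfactory receptor genes, a family with no known role in this cell type, had a median of 2.97 in control and a 95th percentile of 4.53, so a fold change that starts or ends under 4.53 is approximate. Of 15 genes of epithelial and A549 identity none passed, and their summed level was 154.89 to 155.01 in control and 155.33 to 155.82 after heat shock. The 12 fibroblast, 12 endothelial and 14 leukocyte markers had medians of 3.69, 3.76 and 4.03, under that floor. Of the fibroblast markers COL1A1 rose by 0.78, and PDGFRL and COL3A1 fell by 0.56 and 0.35. COL3A1 started under the floor, at 3.79, and its call was lost under 16 alternatives. Of 10 alveolar type I markers RTKN2 and EMP2 fell, by 0.54 and 0.29. Of 12 housekeeping genes SDHA and TFRC fell, by 0.26 and 0.35, and the summed level was 138.75 to 138.91 in control and 138.14 to 138.27 after heat shock. Their part in the other results was not tested. Of the defining markers of the alveolar type II cell, the surfactant genes SFTPA1, SFTPA2 and SFTPD were under the floor in control, at 2.26, 2.65 and 3.49. NKX2-1, SFTPB and SFTPC were above it, at 4.78, 5.26 and 6.08. Of all 15 type II markers measured only ETV5 passed, lower by 0.38, a call lost under 8 alternatives.

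Heat shock raised 894 genes (4.93% of all genes tested) and lowered 1436 (7.92%), 2330 in all (12.9%; limma, Benjamini-Hochberg adjusted p under 0.05). Rises were fewer and larger than falls. Of the rises, 97 (0.535%) reached 2-fold and 21 reached 4-fold, whereas 7 falls (0.0386%) reached 2-fold and none reached 4-fold. Most calls were small: 440 of the rises and 976 of the falls lay between 0.25 and 0.5 on the log2 scale. The groups did not overlap for 1902 genes that were higher (10.5%) and 3777 that were lower (20.8%) after heat shock, called or not. The balance of the directions depended on the scaling, since 1092 genes were higher and 1110 lower with cyclic loess, against 38.4% of calls higher with the deposited values. The median difference over all genes was -0.034, and -0.007 with cyclic loess. Called genes were well expressed: the median control level was 7.72 for rises and 8.06 for falls against 6.05 for all genes. Of the 97 genes with a rise of 2-fold or more, 20 started under the floor of 4.53.

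**Figure D1:**
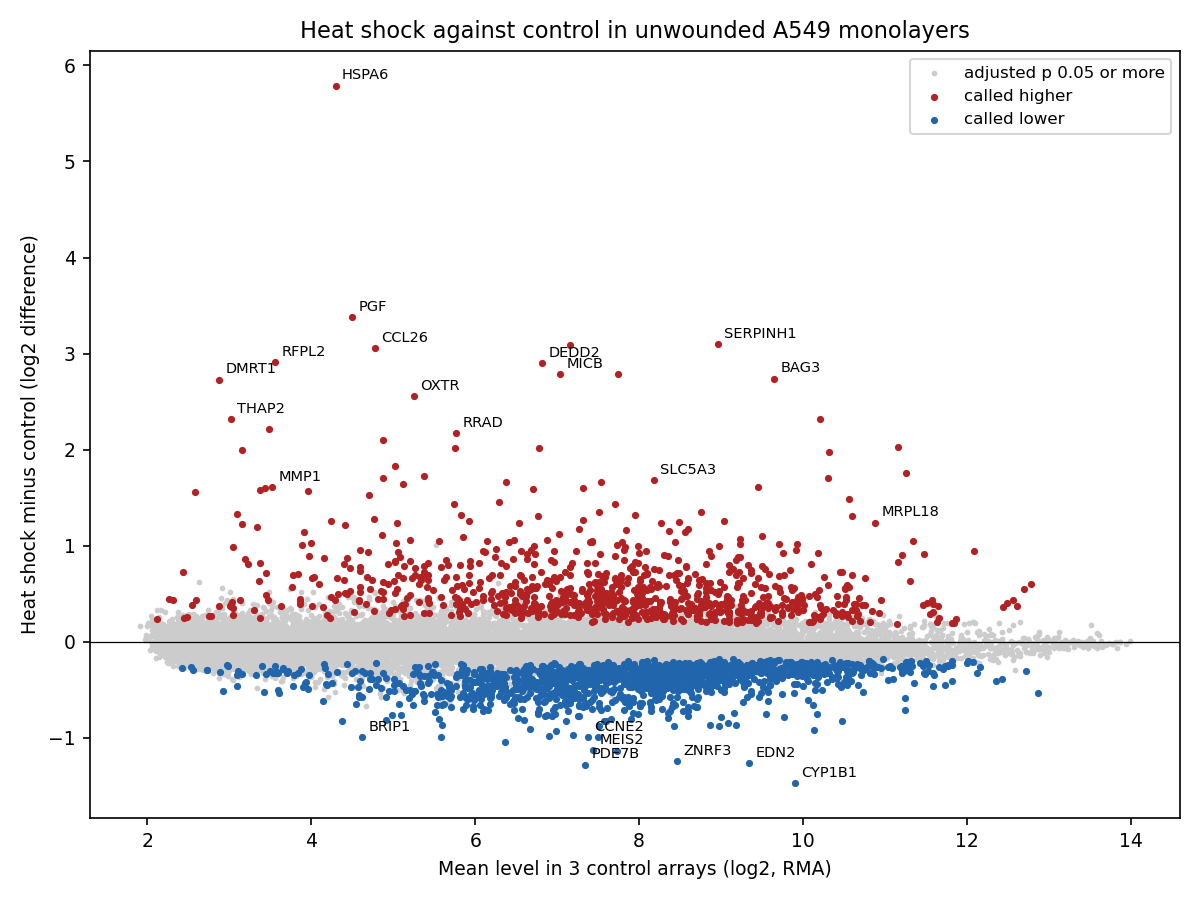
Each point is 1 of the 18132 genes, with its mean log2 level in the 3 control arrays on the horizontal axis and the log2 difference between heat shocked and control means on the vertical axis. Red and blue points are the 894 genes called higher and the 1436 called lower; rises reach 5.79 (HSPA6) and start at any control level, while falls end at -1.47 (CYP1B1).

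The chaperones set the scale for the rest. Of 106 measured chaperones and co-chaperones 32 rose and 9 fell. The share of rises, 30.2%, was well above the 4.93% of all genes. The share of falls, 8.49%, was near the 7.92% of all genes. The median of the list was 0.06, since its other members did not pass. The rises reached 5.79 for HSPA6, a stress-inducible HSP70 gene, 3.10 for SERPINH1, which encodes the collagen chaperone HSP47, and 3.09 for HSPA4L, an HSP110 family gene. DNAJB1, an HSP40 gene, read 10.44, 10.37 and 10.11 on the control arrays and 12.41, 12.37 and 12.08 after heat shock, with no overlap. HSPA6 itself read 4.48, 4.11 and 4.31 in control, at the floor, and 10.34, 10.48 and 9.46 after heat shock, lowest in replicate 3. The falling members included the DNAJ genes DNAJC18 at -0.83, DNAJC22 at -0.45, DNAJC9 at -0.44 and DNAJC17 at -0.37, so DNAJ genes were called in both directions. They also included CCT6B, a paralog of a chaperonin subunit gene, at -0.46, while CCT6A was higher by 0.57 and TCP1 by 0.40. The 9 falls were 4 without control replicate 1. HSF1 differed by 0.15 ± 0.08 (limma adjusted p = 0.266), and none of the 5 measured heat shock factor genes passed. HSP70 genes have near-identical copies that a probe set may not separate.

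Outside the chaperones the largest rise was that of PGF, which encodes placental growth factor, a ligand of the VEGF receptor FLT1. Its level was 4.55, 4.87 and 4.07 in control and 7.84, 8.02 and 7.77 after heat shock, a difference of 3.38 ± 0.18 (SE, n = 3; 10.4-fold; limma adjusted p = 3.34e-07). All 3 heat shocked arrays lay well above all controls, which were near the floor. CCL26, which encodes the chemokine eotaxin-3, went from 4.86, 4.99 and 4.48 to 8.06, 8.23 and 7.23, a rise of 3.06 ± 0.25. RFPL2, a gene of the RFPL family of RING finger proteins, went from 3.45, 3.51 and 3.71 to 6.79, 6.67 and 5.94, a rise of 2.91 ± 0.23. Both were lowest after heat shock in replicate 3, and their ranges stayed apart from control.

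DEDD2, which encodes a death effector domain protein of the nucleus, read 6.92, 7.01 and 6.54 in control and 9.85, 9.60 and 9.74 after heat shock, and rose 7.48-fold. MICB, which encodes a surface protein that natural killer cells recognise through NKG2D, read 7.03, 6.98 and 7.11 in control and 9.89, 9.85 and 9.76 after heat shock, and rose 6.92-fold (limma adjusted p = 3.31e-10). Neither overlapped with control, and the 3 other probe sets of MICB rose too. DMRT1, a transcription factor gene of the testis, went from 2.77, 3.12 and 2.75 to 5.81, 5.46 and 5.56. It started under the floor, and neither of its 2 other probe sets passed.

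Further large rises came from genes of unlike function. OXTR, the oxytocin receptor gene, rose by 2.56 ± 0.15, from 5.32, 5.32 and 5.11 to 7.98, 8.08 and 7.36. THAP2, a zinc finger gene, and ARL14, a small GTPase gene, rose by 2.32 and 2.21 from levels under the floor. RRAD and GEM, which encode related small GTPases that restrain voltage-gated calcium channels, rose by 2.17 ± 0.29 and 1.83 ± 0.19. RRAD was 5.75, 5.93 and 5.62 in control and 8.13, 8.52 and 7.16 after heat shock, with replicate 3 much the lowest. TRIML2, PNLDC1 and SYNE1 rose by 2.02, 2.00 and 1.71; PNLDC1 encodes a nuclease that trims piRNAs, and SYNE1 a giant spectrin-repeat protein of the nuclear envelope. PHF8, a histone demethylase gene, rose by 1.73 ± 0.12, from 5.49, 5.52 and 5.12 to 7.01, 7.13 and 7.19, and here replicate 3 was the highest.

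Several of the genes with large rises were also well expressed in control, where a fold change is least affected by the floor. SLC5A3, the sodium-coupled myo-inositol transporter gene, rose by 1.68 ± 0.11 from 8.27, 8.20 and 8.05 to 10.01, 9.90 and 9.65. ADCY7, an adenylyl cyclase gene, rose by 1.66 ± 0.10 from 7.56, 7.62 and 7.41 to 9.23, 9.23 and 9.11. ZFAND2A, which encodes a stress-induced zinc finger protein that associates with the proteasome, rose by 1.61 ± 0.11 from 9.57, 9.45 and 9.33 to 11.10, 11.26 and 10.83. In each the 3 heat shocked arrays stood above all controls, and replicate 3 was the lowest of them. SYNPO2, an actin-binding protein gene, rose by 1.60, PWWP3A by 1.59, ENGASE, which encodes a glycan-cleaving enzyme of the cytosol, by 1.66 and EFCAB7 by 1.64. For SYNPO2 1 of 8 other probe sets passed in the same direction. C11orf96 rose by 1.60 ± 0.22. The adjacent collagenase and stromelysin genes MMP1 and MMP10 rose by 1.61 ± 0.18 and 1.58 ± 0.19, both from levels under the floor.

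**Figure D2:**
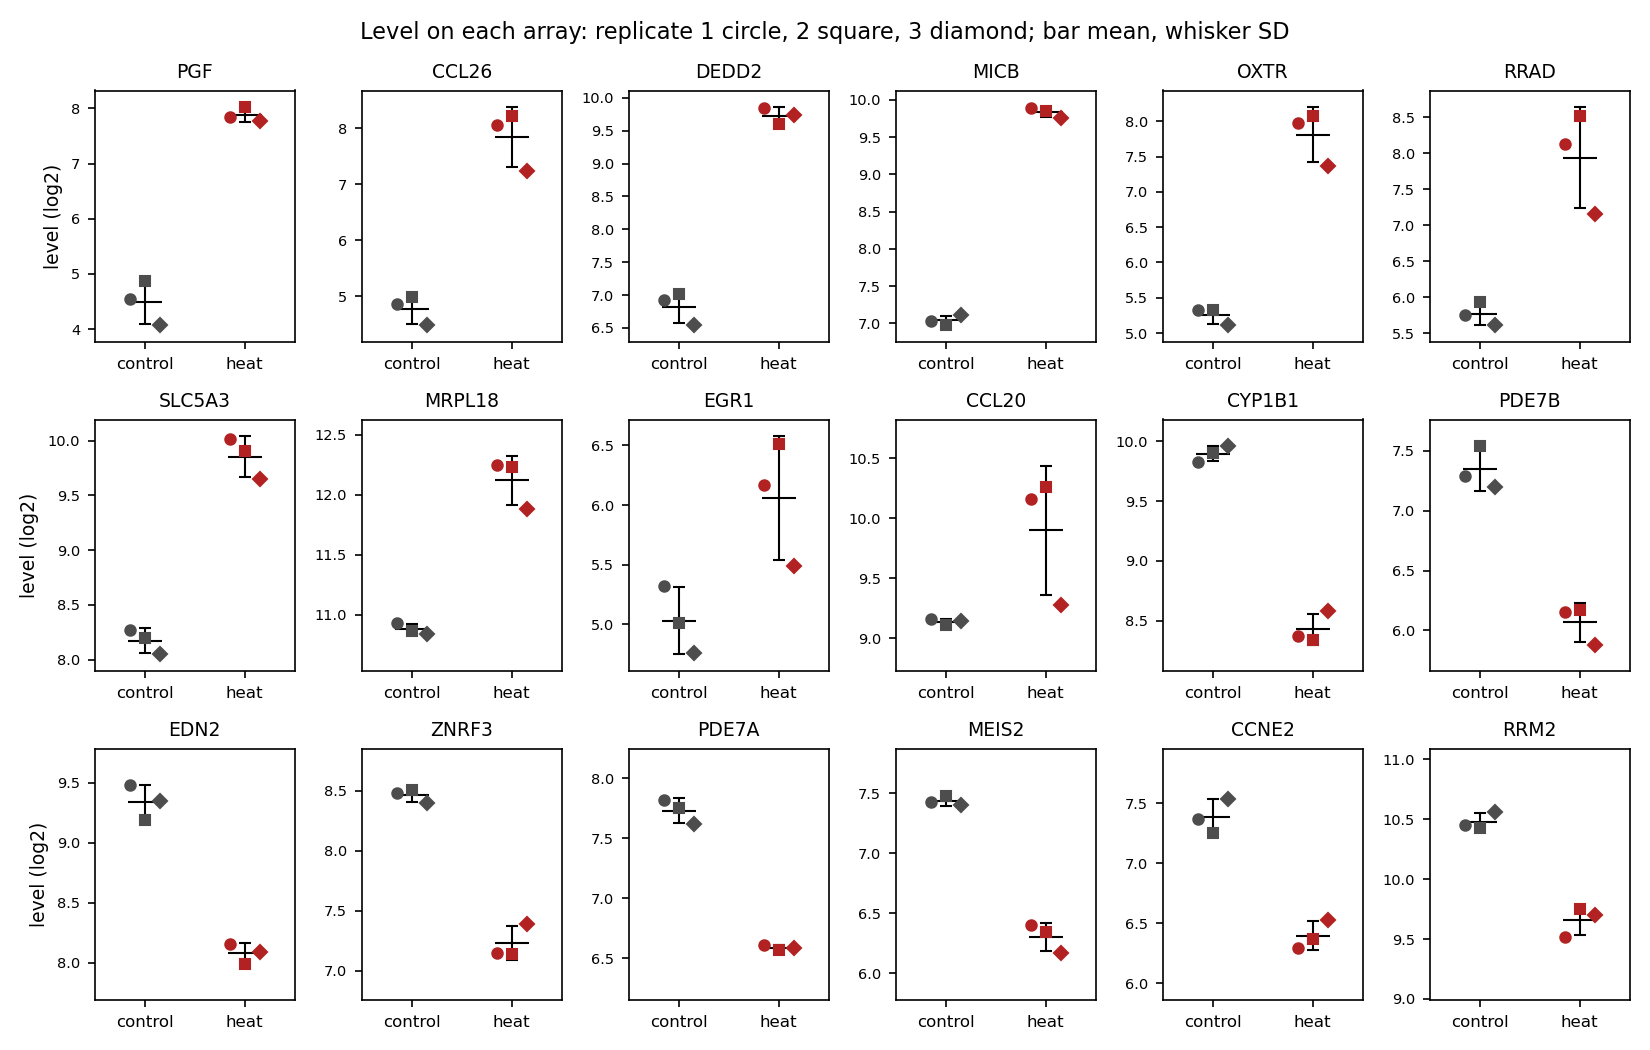
Log2 level of 18 genes on the 3 control (grey) and 3 heat shocked (red) arrays; the circle, square and diamond are replicates 1, 2 and 3, the bar is the mean, the whisker the SD, and each gene has its own vertical range. The 2 groups do not overlap for any gene shown, and CCL20 lies at 9.28 on heat shocked replicate 3, close to its controls at 9.11 to 9.16.

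The size of the response differed among the 3 heat shocked arrays. Over the 97 genes with a rise of 2-fold or more, the median difference from the control mean was 1.43 in replicate 1, 1.5 in replicate 2 and 1.14 in replicate 3, and 80 of the 97 rose least in replicate 3. Over all 894 rises the medians were 0.48, 0.52 and 0.40, and 581 were smallest in replicate 3. The falls did not share this order: over the 1436 falls the medians were -0.37, -0.34 and -0.36, and 491 were smallest in replicate 3. These genes were called with the same arrays, so the values describe the arrays only. Replicate 3 carries the other description code, and the part of that code in the result was not tested.

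Among the genes with a small rise in replicate 3 were early response and inflammatory genes. CCL20, a chemokine gene, was 9.16, 9.11 and 9.14 in control and 10.16, 10.26 and 9.28 after heat shock. TNFAIP3, the gene of the NF-kappaB inhibitor A20, was 7.64, 7.41 and 7.61 in control and 8.39, 8.62 and 7.70 after heat shock. NFKBIA, the gene of the inhibitor IκBα, was 10.23, 10.16 and 10.12 in control and 10.80, 10.86 and 10.26 after heat shock. All 3 passed the test (limma adjusted p = 0.0434, 0.0366 and 0.044), yet heat shocked replicate 3 was close to the highest control, and each lost its call under 8 alternatives. EGR1, a zinc finger factor gene induced within minutes by many stimuli, was higher by 1.03 ± 0.27, a call lost under 6 alternatives. It was 5.32, 5.01 and 4.76 in control and 6.17, 6.51 and 5.49 after heat shock. The homeobox gene DLX2 had the same order, with 3.33, 3.12 and 3.00 in control and 4.71, 4.84 and 3.60 after heat shock. JUNB, an AP-1 subunit gene, had the opposite order, with 7.29, 7.22 and 7.02 in control and 7.89, 7.90 and 8.20 after heat shock, highest in replicate 3.

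**Figure D3:**
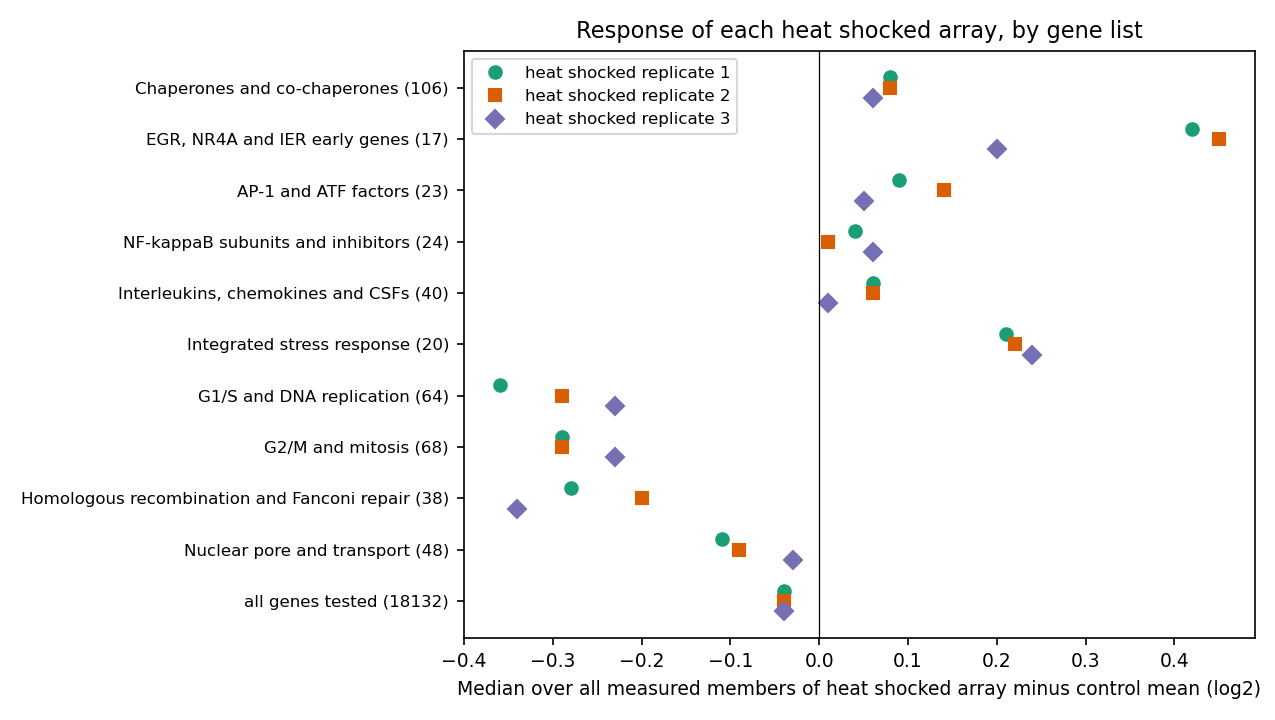
Median over all measured members of 10 gene lists, and over all 18132 genes, of the log2 level on each heat shocked array minus the control mean (horizontal axis); list sizes stand in parentheses. The EGR, NR4A and IER list lies at 0.42 and 0.45 in replicates 1 and 2 and at 0.20 in replicate 3, and the G1/S and G2/M lists lie at -0.23 or below in all 3.

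Promoters were read for heat shock elements because many genes rose together. For 14086 of the 17270 protein-coding genes tested (81.6%), RefSeq (GRCh38.p14) gave 1 or more windows from 250 bases before to 50 bases after a transcription start. A window was said to hold an element of 2 units where it had GAANNTTC or TTCNNGAA on either strand, and of 3 units where a further GAA or TTC followed in alternation at the same spacing, which contains the shorter element. An element of 2 units stood in 11.5% of the 19988 windows of all genes tested, in 15.5% of the windows of rises and in 8.9% of those of falls. It stood in 24.4% of the windows of rises of 2-fold or more and in 46.3% of those of rising chaperones. With chaperones left out the share among rises was 14.3%. For 3 units the shares were 0.415% of all windows, 1.59% for rises, 0.114% for falls, 5.34% for rises of 2-fold or more and 0.917% for rises other than chaperones. By size of the rise, the share with 2 units was 13.5% under 0.5, 15.5% from 0.5 to 1 and 24.4% above. These shares include the chaperones, and shares by size without them are not given, so the order may not hold for other genes. Windows of rises with 3 units numbered 18, and windows of falls 2. The RefSeq table as a whole held 35093 windows, 13.5% with 2 units and 0.49% with 3.

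Of the 78 rises of 2-fold or more with a window, 26 (33.3%) held an element of 2 units and 6 (7.69%) one of 3 units. Among all genes with a window the shares were 14.9% and 0.554%. Of the 6 genes with 3 units 2 were not chaperones, PHF8 and DOCK10, which rose by 1.32. PGF, CCL26, RFPL2, DEDD2, OXTR and RRAD were not among the 26. Below is 1 window each of 6 genes chosen from those with an element, and of HSPA6 for comparison. The windows run 5′ to 3′ on the strand of the gene, with every element of either kind in capitals. They lie at chr1:161524290-161524589 (HSPA6, plus strand), chrX:54045087-54045386 (PHF8, minus), chr2:225042419-225042718 (DOCK10, minus), chr6:31497895-31498194 (MICB, plus), chr6:159789617-159789916 (MRPL18, plus), chr7:1160147-1160446 (ZFAND2A, minus) and chr9:841447-841746 (DMRT1, plus).
HSPA6: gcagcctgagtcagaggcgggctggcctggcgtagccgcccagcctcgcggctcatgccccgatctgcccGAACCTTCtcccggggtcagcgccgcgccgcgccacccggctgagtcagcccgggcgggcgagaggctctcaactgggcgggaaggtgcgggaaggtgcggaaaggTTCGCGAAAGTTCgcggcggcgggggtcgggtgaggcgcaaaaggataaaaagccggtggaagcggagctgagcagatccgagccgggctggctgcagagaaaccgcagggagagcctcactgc
PHF8: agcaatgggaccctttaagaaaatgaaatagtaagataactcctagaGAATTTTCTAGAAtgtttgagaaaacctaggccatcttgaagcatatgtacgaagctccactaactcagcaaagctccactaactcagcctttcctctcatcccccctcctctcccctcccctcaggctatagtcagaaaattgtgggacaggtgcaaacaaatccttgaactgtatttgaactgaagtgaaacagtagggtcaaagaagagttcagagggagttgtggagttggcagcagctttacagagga
DOCK10: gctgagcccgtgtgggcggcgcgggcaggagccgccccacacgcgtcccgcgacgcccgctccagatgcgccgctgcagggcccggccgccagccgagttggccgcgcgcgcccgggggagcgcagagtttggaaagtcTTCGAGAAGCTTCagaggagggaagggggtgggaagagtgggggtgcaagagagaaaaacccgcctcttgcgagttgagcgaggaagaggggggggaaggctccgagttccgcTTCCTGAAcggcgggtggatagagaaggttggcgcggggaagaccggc
MICB: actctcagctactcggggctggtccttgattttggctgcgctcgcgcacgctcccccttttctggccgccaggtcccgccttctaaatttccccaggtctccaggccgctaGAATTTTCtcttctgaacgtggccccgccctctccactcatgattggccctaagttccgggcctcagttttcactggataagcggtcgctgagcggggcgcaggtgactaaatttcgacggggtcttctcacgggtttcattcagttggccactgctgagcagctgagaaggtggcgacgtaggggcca
MRPL18: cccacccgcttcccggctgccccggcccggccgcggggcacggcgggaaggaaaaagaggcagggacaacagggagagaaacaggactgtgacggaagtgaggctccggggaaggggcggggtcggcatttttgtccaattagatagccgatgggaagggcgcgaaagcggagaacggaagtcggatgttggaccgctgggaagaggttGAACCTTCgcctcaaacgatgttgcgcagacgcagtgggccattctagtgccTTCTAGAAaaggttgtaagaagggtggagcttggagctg
ZFAND2A: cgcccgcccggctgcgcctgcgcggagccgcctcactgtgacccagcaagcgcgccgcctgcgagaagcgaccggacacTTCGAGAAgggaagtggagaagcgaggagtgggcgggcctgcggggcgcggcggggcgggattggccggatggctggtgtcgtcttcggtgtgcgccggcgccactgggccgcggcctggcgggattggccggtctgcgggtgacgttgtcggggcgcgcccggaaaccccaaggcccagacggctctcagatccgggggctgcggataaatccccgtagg
DMRT1: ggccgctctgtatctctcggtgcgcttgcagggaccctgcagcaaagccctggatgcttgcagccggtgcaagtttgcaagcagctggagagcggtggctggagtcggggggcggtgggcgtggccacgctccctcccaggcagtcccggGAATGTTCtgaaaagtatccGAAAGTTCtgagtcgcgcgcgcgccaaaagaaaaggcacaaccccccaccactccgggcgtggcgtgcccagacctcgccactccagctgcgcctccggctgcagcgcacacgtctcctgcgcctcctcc
In the windows shown, the element of 3 units began 74 bases before the start in HSPA6, 111 in DOCK10 and 203 in PHF8. HSPA6 and DOCK10 each held 1 further element of 2 units, 180 bases before the start in HSPA6 and 3 bases after it in DOCK10. MICB and ZFAND2A held 1 element of 2 units, at 139 and 171 bases before the start. MRPL18 held a pair, 41 and 12 bases before this start, and so did DMRT1, at 100 and 80. Windows of other starts, not shown, held elements too. In PHF8 1 held an element of 3 units 15 bases after its start, with further ones of 2 units. Another PHF8 window held an element of 2 units 228 bases before its start. In DMRT1 another window held an element of 2 units 21 bases before its start. A match is a description of the letters and does not show that a factor bound there. The AP-1 site TGACTCA or TGAGTCA stood in 4.06% of all windows, 5.74% of those of rises and 2.85% of those of falls. The SP1 box GGGCGG or CCGCCC stood in 57.5% of all windows, 64.3% of those of rises and 67.1% of those of falls, and the CRE TGACGTCA in 2.34%, 3.09% and 3.77%.

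Some genes with rises lay next to each other. Among neighbours of rises in the order of tested genes, 142 of 1784 rose as well (7.96%, against 4.93% of all genes), and among neighbours of falls 280 of 2867 fell (9.77%, against 7.92%). The chaperonin gene TCP1, MRPL18 and PNLDC1 are 3 genes in a row that rose by 0.40, 1.24 and 2.00. MRPL18 encodes a protein of the large mitochondrial ribosomal subunit. It read 10.93, 10.86 and 10.84 in control and 12.25, 12.23 and 11.88 after heat shock, so that a gene among the well expressed ones more than doubled. MRPS6, of the small mitochondrial subunit, and SLC5A3 overlap on the same strand and rose by 1.24 and 1.68. SRRM3 and the small heat shock protein gene HSPB1 rose by 1.11 and 1.76, and PFKFB4 and COL7A1 by 1.09 and 0.75. Among falls the neighbours KIF11 and HHEX moved by -0.66 and -0.75, and SLFN5 and SLFN11 by -0.81 and -0.88.

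The largest fall was that of CYP1B1, a cytochrome P450 gene that metabolises xenobiotics and oestrogens. It read 9.83, 9.90 and 9.96 in control and 8.37, 8.34 and 8.58 after heat shock, a difference of -1.47 ± 0.13 (SE, n = 3; limma adjusted p = 2.2e-05), and 3 of its 4 other probe sets fell too. The 2 genes of the cAMP-specific phosphodiesterase family 7 followed closely. PDE7B went from 7.29, 7.54 and 7.20 to 6.15, 6.17 and 5.88 and PDE7A from 7.82, 7.75 and 7.62 to 6.61, 6.57 and 6.58. EDN2, the endothelin 2 gene, went from 9.48, 9.19 and 9.35 to 8.16, 7.99 and 8.09. None of these overlapped with control, and their heat shocked arrays spread over at most 0.29.

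ZNRF3, a ubiquitin ligase gene that removes Wnt receptors from the cell surface, read 8.48, 8.51 and 8.40 in control and 7.15, 7.14 and 7.39 after heat shock. MEIS2, a homeobox gene, read 7.43, 7.48 and 7.40 in control and 6.40, 6.34 and 6.17 after heat shock. SARM1, the gene of an NAD-cleaving enzyme of axon degeneration, fell by 1.04. These 7 genes made up all falls of 2-fold or more. Just under 2-fold came BRIP1, a DNA helicase gene of the Fanconi pathway, at -0.99 ± 0.12 and with heat shocked levels under the floor, the cyclin gene CCNE2 at -0.99 ± 0.17, the formin gene FMN1 at -0.99 ± 0.18 and GCH1, which encodes the first enzyme of tetrahydrobiopterin synthesis, at -0.99 ± 0.16. DIPK1A, E2F7, DNA2, ZHX2, MRTFB and SLFN11 fell by 0.98, 0.97, 0.93, 0.91, 0.88 and 0.88. Of these E2F7 is a repressor of the E2F family, DNA2 a nuclease and helicase of DNA replication, and MRTFB a coactivator of SRF. CCNE1, LRP8, BMP4, METTL25, FAM20C, RRM2, HES1 and FRMD3 fell by 0.82 to 0.88.

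Genes of the cell cycle fell more often than they rose. Of 64 genes of G1/S and DNA replication 33 fell and 1 rose, with a median of -0.28 against -0.03 for all genes. RRM2, a ribonucleotide reductase subunit gene, read 10.45, 10.43 and 10.56 in control and 9.52, 9.75 and 9.70 after heat shock. CCNE2 read 7.37, 7.25 and 7.54 in control and 6.29, 6.37 and 6.53 after heat shock, and CCNE1 8.98, 8.93 and 9.01 and 7.98, 8.10 and 8.20. The cyclin E pair was lower on every heat shocked array than on any control. The repressors E2F7 and E2F8 fell by 0.97 and 0.77, the origin recognition gene ORC1 by 0.63, the flap nuclease gene FEN1 by 0.61 and the helicase genes MCM10, MCM3 and MCM6 by 0.48, 0.35 and 0.33. The 1 member that rose was CDK6, at 0.31. Fewer cells in a phase and less RNA per cell cannot be told apart in RNA from whole monolayers.

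Of 68 genes of G2/M and mitosis 36 fell and 1 rose, with a median of -0.27. The spindle gene ASPM fell by 0.78, the kinesin genes KIF2C, KIF11, KIF20B and KIF15 by 0.74, 0.66, 0.65 and 0.57, and the condensin gene NCAPH by 0.70. The mitotic cyclins and kinases fell less, with CCNA2 at -0.38, CCNB1 at -0.35, AURKA at -0.26 and CDK1 at -0.27; another probe set of CDK1 passed in the opposite direction. CKS2 rose by 0.25. Of 38 genes of homologous recombination and Fanconi repair 18 fell and 1 rose, with a median of -0.29. After BRIP1 the falls were led by FANCE at -0.66, TIPIN at -0.58 and the checkpoint adaptor gene CLSPN at -0.56, and BRCA1 fell by 0.48 and CHEK1 by 0.42. RAD50 rose by 0.29. The 3 lists share genes with the list of tubulins and kinesins, of which 19 of 64 fell and 3 rose (median -0.06). Of 73 centrosome and cilium genes 15 fell and 1 rose (median -0.17), with CEP192 and BBS4 at -0.68 and CEP72 at -0.62. Without control replicate 1 the G2/M count was 20 and the centrosome count 8, without control replicate 3 the tubulin and kinesin count was 11, and with replicates 1 and 2 averaged the first 3 counts were 17, 13 and 11. With cyclic loess they were 28, 31 and 15.

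CDKN1A, which encodes the cyclin-dependent kinase inhibitor p21, rose by 0.47 ± 0.10, from 10.54, 10.64 and 10.36 to 11.07, 11.11 and 10.78. It was 1 of 4 rises and 1 fall among 25 p53 targets and CDK inhibitors; BBC3, TNFRSF10B and AEN rose by 0.53, 0.41 and 0.41, and TP53I3 fell by 0.31, a call lost under 8 alternatives. Without heat shocked replicate 3 the list had 8 rises, and without replicate 1 it had 2. The antiproliferative gene BTG1 rose by 0.56. Of 21 BCL2 family genes 5 rose and none fell, on both sides of cell death: the survival genes MCL1 and BCL2A1 by 0.59 and 0.56, and the death-promoting genes BBC3, BCL2L11 and BID by 0.53, 0.37 and 0.32. Among 14 natural killer cell ligand genes MICB, ULBP1, MICA and PVR rose, by 2.79, 0.81, 0.32 and 0.24, and none fell; the count was 2 without control replicate 1 and 2 without heat shocked replicate 3. The MICA and MICB genes are close relatives, and their probe sets may read both.

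**Figure D4:**
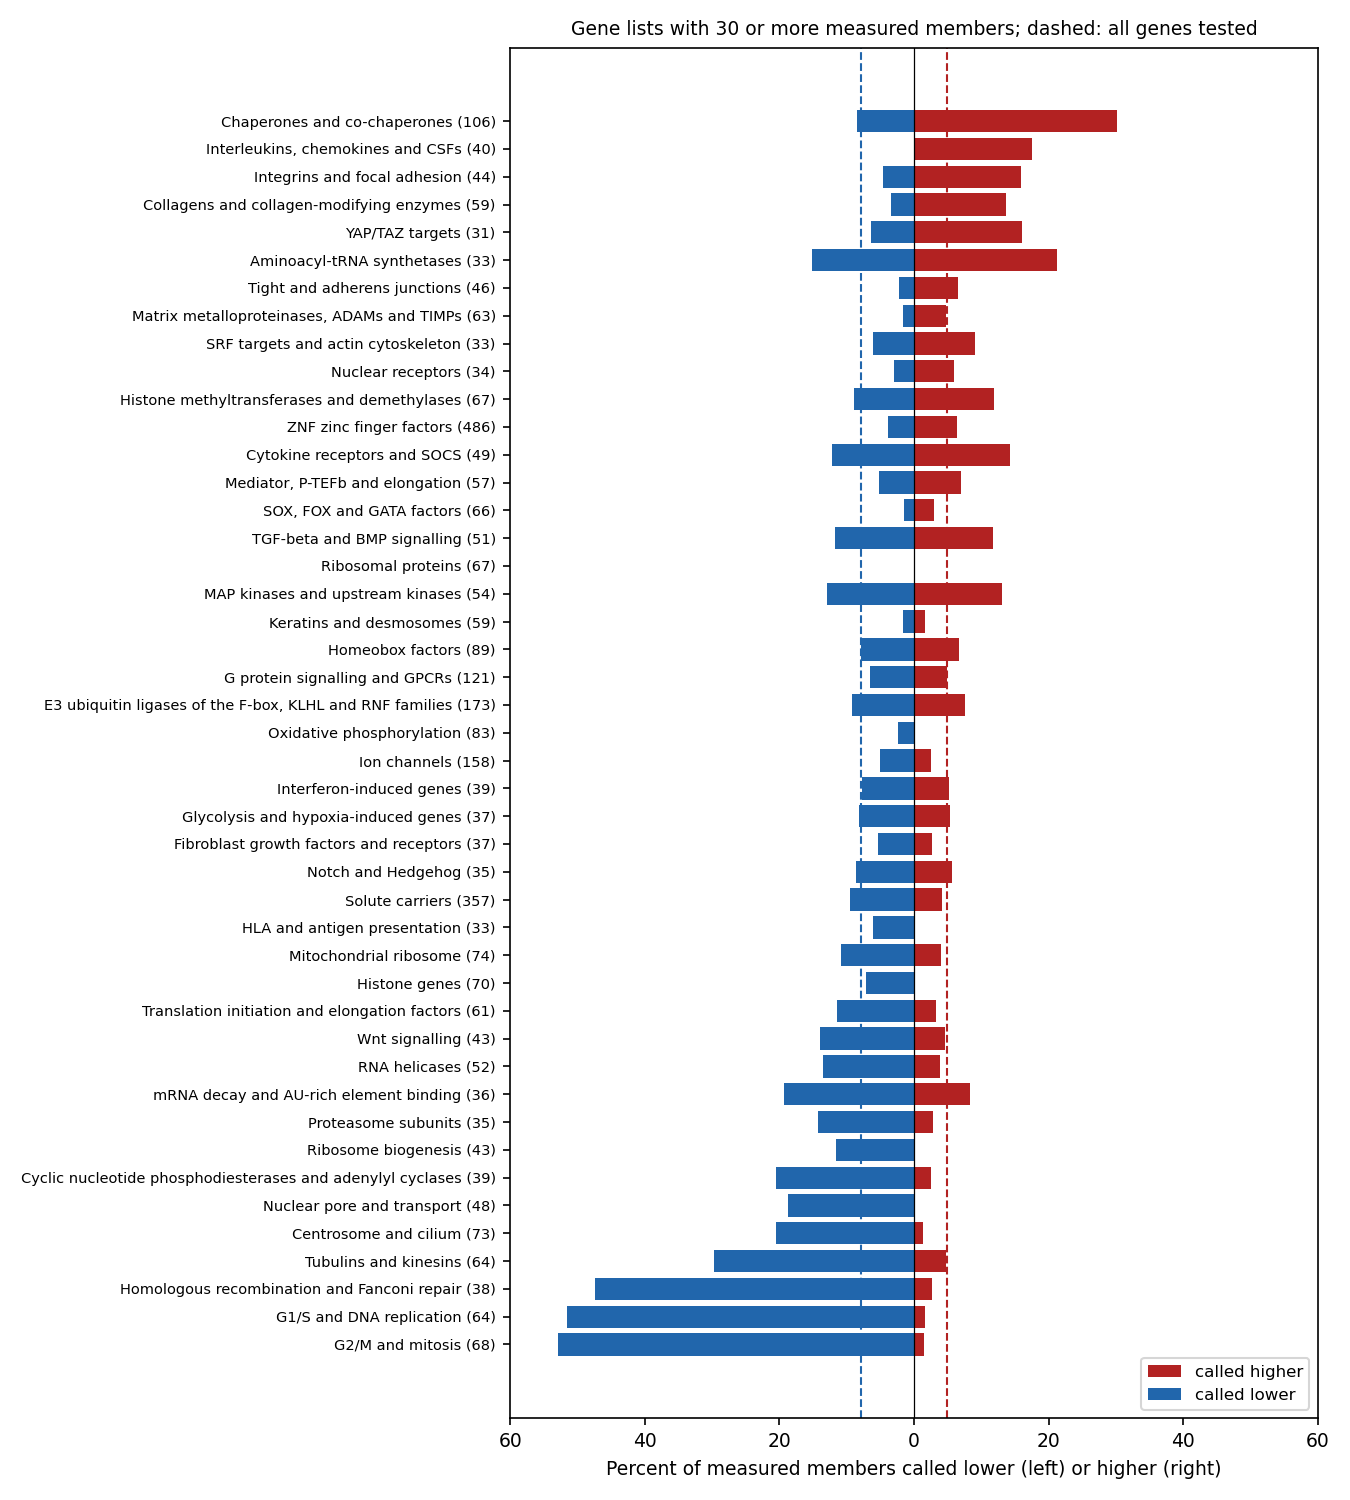
Percent of measured members called lower (blue, left) and higher (red, right) after heat shock for lists with 30 or more measured members, with marker lists and 1 other list left out, with the number measured in parentheses; dashed lines mark the 7.92% and 4.93% of all genes tested. The G2/M, G1/S and recombination lists reach 52.9%, 51.6% and 47.4% lower, chaperones reach 30.2% higher, and no ribosomal protein gene passed.

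Early response transcription factors rose in part. Of 17 genes of the EGR, NR4A and IER families 8 rose and 1 fell (median 0.34). After EGR1 the rises were led by CSRNP1 at 0.82, NR4A1 at 0.66, NAB2, a corepressor of EGR factors, at 0.64 and IER5, a gene known to be induced by HSF1, at 0.61. Without control replicate 2 the count was 5. Of 23 AP-1 and ATF genes MAFF, FOSL1, JUNB, JUN and JDP2 rose, by 1.05, 0.94, 0.82, 0.64 and 0.44, and ATF5 and ATF7 fell, by 0.74 and 0.39. FOS differed by 0.08 ± 0.15 (limma adjusted p = 0.826), with 6.16, 6.20 and 6.25 in control and 6.29, 6.60 and 5.95 after heat shock, and the groups overlapped. The ETS factor genes ETS1 and ETS2 rose by 1.04 ± 0.15 and 0.85 ± 0.09, while ETV1, ERF, ETV6 and ETV5 fell by 0.65, 0.50, 0.45 and 0.38; the count of falls was 1 without control replicate 2. KLF7 rose by 1.00 and KLF4 by 0.46, and KLF9 and SP4 fell by 0.66 and 0.60.

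Other transcription and chromatin genes moved in both directions. Of 486 ZNF genes 31 rose and 19 fell (6.38% and 3.91%), led by ZNF274 at 0.85 and ZNF827 at -0.60. The falls were 9 without control replicate 1, the rises 46 without heat shocked replicate 3 and 14 with replicates 1 and 2 averaged. Of 89 homeobox genes 6 rose and 7 fell (6.74% and 7.87%, near the 4.93% and 7.92% of all genes). The falls were 4 without control replicate 2. DLX2, MSX1 and PKNOX1 rose by 1.23, 0.81 and 0.80, and MEIS2 and HHEX fell by 1.13 and 0.75. Of 67 histone methyltransferase and demethylase genes 8 rose (5 without control replicate 3) and 6 fell (3 without control replicate 2); the rises were led by PRDM6 at 1.33, KDM7A at 0.84 and KDM6B at 0.52. No histone gene rose and 5 of 70 fell (7.14%, near the 7.92% of all genes, and 3 without control replicate 2). Among them were the variant genes H2AZ1 and H2AX, by 0.53 and 0.46. The homeobox and histone lists had low median control levels, 4.85 and 3.70. Of genes at 3.40 to 5.06, 2.26% rose and 1.71% fell. ELL2, an elongation factor gene, rose by 0.99 ± 0.11, and HEXIM1, which encodes an inhibitor of the elongation kinase P-TEFb, fell by 0.71, from 11.21, 11.27 and 11.25 to 10.45, 10.51 and 10.64. All 4 other probe sets of each gene passed in its direction. The clock output genes DBP and HLF, which encode related PAR bZIP factors, moved by 0.73 and -0.76.

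Several lists of RNA handling were counted against the 7.92% of all genes that fell and the 4.93% that rose. These lists had median control levels from 8.27 (mRNA decay) to 13.19 (ribosomal proteins), where calls were more frequent. Of genes at 7.02 to 8.71, 15.7% fell and 8.69% rose, and at 8.71 to 13.99, 13.1% and 7.28%. A share above 7.92% may therefore reflect level alone, which was not tested. Of 27 SR protein and splicing kinase genes 6 fell (22.2%; 3 without control replicate 1) and 3 rose: SRSF2, SRSF12 and SRSF6 fell by 0.59, 0.46 and 0.45, and the kinase genes CLK3 and CLK4 moved by 0.73 and -0.45. Of 22 hnRNP genes 2 fell and 2 rose. Of 48 nuclear pore and transport genes 9 fell (18.8%) and none rose, NUP50, NUP85, NUP153 and NUP107 by 0.38, 0.37, 0.34 and 0.30; the count was 6 without control replicate 1. Of 36 genes of mRNA decay and AU-rich element binding 7 fell and 3 rose (3 falls without control replicate 1, 1 rise without heat shocked replicate 1), with the deadenylase genes PAN3 and PAN2 at -0.51 and 0.33 and TIA1, a stress granule protein gene, at 0.44. None of 67 ribosomal protein genes passed, and their range was -0.28 to 0.05. Of 43 ribosome biogenesis genes 5 fell and none rose, led by GNL2 at -0.46, and 1 fell without control replicate 2. Of 83 oxidative phosphorylation genes SDHA and NDUFV3 fell, and the count was 0 without any 1 of the 6 arrays. In the mitochondrial ribosome 8 of 74 genes fell, MRPL14 most at -0.30, and 3 rose, so that MRPL18 and MRPS6 stood apart from a list with a median of -0.10. Without control replicate 1 the falls were 2.

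The integrated stress response is set off by phosphorylation of eIF2α. Of 20 members of its list 7 rose and none fell, with a median of 0.23; 6 members had a negative sign. In wounded cells 4 members were called higher and 2 lower, with a median of 0.10. TRIB3, a pseudokinase gene, read 9.49, 9.53 and 9.48 in control and 10.27, 10.26 and 10.33 after heat shock. STC2, CEBPG, CEBPB and NUPR1 rose by 0.78, 0.70, 0.67 and 0.43, and ASNS, asparagine synthetase, and PPP1R15A, the eIF2α phosphatase subunit GADD34, by 0.38 and 0.37. The replicates agreed, with list medians of 0.21, 0.22 and 0.24. EIF2AK2, the gene of the eIF2α kinase PKR, rose by 0.61 ± 0.06. Of 33 aminoacyl-tRNA synthetase genes 7 rose, 5 fell and 21 did not pass. Of the 7 that rose, YARS1, AARS1, CARS1, MARS1, SARS1 and EPRS1, by 0.21 to 0.44, act in the cytosol and EARS2, at 0.37, in mitochondria. All 5 that fell, TARS2, HARS2, MARS2, NARS2 and SARS2, by 0.24 to 0.36, encode mitochondrial enzymes. The compartments were compared after the values were seen, and without control replicate 1 the counts were 4 and 0.

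Of 20 endoplasmic reticulum stress genes HERPUD1 and DNAJC3 rose, by 0.73 and 0.27 (the latter lost its call under 11 alternatives), and EDEM1 fell, by 0.40. Of 35 proteasome subunit genes PSMD10 rose, by 0.33, and 5 fell, by 0.21 to 0.30, and none of these falls remained past the threshold without control replicate 1. The autophagy genes ULK1 and MAP1LC3B rose by 0.61 and 0.44. KLHL25 and FBXO32, substrate receptors of ubiquitin ligases, rose by 1.28 ± 0.10 and 1.22 ± 0.10, 2 of the 13 rises and 16 falls among 173 F-box, KLHL and RNF genes. Their shares, 7.51% and 9.25%, were near those of all genes, and without control replicate 1 the list had 8 rises and 4 falls. Of 29 NRF2 and glutathione genes MAFF, HMOX1, ME1 and UGDH rose and none fell. HMOX1, haem oxygenase 1, read 10.49, 10.56 and 10.47 in control and 10.98, 10.92 and 11.27 after heat shock, highest in replicate 3. Of 15 metallothionein and zinc transport genes 1 rose and 1 fell, neither without control replicate 1.

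Secreted signals included large single responses. Of 40 interleukin, chemokine and colony stimulating factor genes 7 rose and none fell (median 0.05). After CCL26 came IL11, an IL6 family cytokine gene, with 7.85, 7.70 and 7.98 in control and 9.07, 9.16 and 8.80 after heat shock, CXCL2 at 1.00, IL32 at 0.82 and CCL20 at 0.76. The count was 10 without heat shocked replicate 3 and 4 without control replicate 1. Of 24 NF-kappaB genes 5 rose and 3 fell, and without control replicate 1 there were 2 rises and 1 fall. TNFAIP3, NFKBIZ, BCL3 and NFKBIA rose by 0.68, 0.60, 0.58 and 0.47, and NFKBIE, whose call was lost under 5 alternatives, fell by 0.49. Interferon-induced genes had 2 rises and 3 falls of 39, shares near those of all genes, with no rise without control replicate 1 and no fall without heat shocked replicate 1. FGF2, a fibroblast growth factor gene, rose by 1.01 ± 0.11, from 7.72, 7.76 and 7.72 to 8.74, 8.90 and 8.59. FGF1, the gene named in the title of the series, differed by 0.28 ± 0.12 (limma adjusted p = 0.152), with overlapping groups at 3.25, 3.38 and 3.40 in control and 3.67, 3.80 and 3.39 after heat shock. ANGPTL4, VEGFC and THBS1 rose by 1.24, 0.35 and 0.61, and ADM, the adrenomedullin gene, fell by 0.31.

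Receptor and pathway lists held changes in both directions, against 4.93% of all genes that rose and 7.92% that fell. In the Wnt list 4.65% rose and 14% fell, and in the TGF-beta and BMP list 11.8% each. In the phosphodiesterase and cyclase list 2.56% rose and 20.5% fell, and in the MAP kinase list 13% each. The TGF-beta and MAP kinase lists had median control levels of 7.63 and 7.05. Of genes at 7.02 to 8.71, 8.69% rose and 15.7% fell. In the Wnt list 6 of 43 genes fell and 2 rose: besides ZNRF3 the receptor genes FZD7 and FZD6 fell by 0.53 and 0.44, and TCF7L2 rose by 0.52. Of 51 TGF-beta and BMP genes 6 rose and 6 fell (3 falls without control replicate 1). The inhibitors SKIL and SMURF1 rose by 1.04 and 0.56, and the ligand BMP4 and the receptors TGFBR3 and ACVR1B fell by 0.87, 0.70 and 0.63. NOTCH1 rose by 0.79 while its target HES1 fell by 0.82. EGFR rose by 0.57 ± 0.10 and its relative ERBB3 fell by 0.53. Of 39 genes of cyclic nucleotide phosphodiesterases and adenylyl cyclases 8 fell (5 without control replicate 3) and 1, ADCY7, rose, the falls led by PDE7B, PDE7A, PDE8B and PDE9A at -1.28, -1.14, -0.71 and -0.58. The prostaglandin E2 receptor genes PTGER2 and PTGER4, both coupled to adenylyl cyclase, moved by 1.24 and -0.76. PTGER2 was 4.86, 5.52 and 4.76 in control and 6.48, 6.53 and 5.86 after heat shock, and PTGER4 was 5.19, 4.99 and 5.12 and 4.13, 4.60 and 4.28, and neither gene's groups overlapped. Of 54 MAP kinase pathway genes 7 rose and 7 fell (3 rises without heat shocked replicate 2, 4 falls without control replicate 1), with MAP4K1, MKNK2 and MAP2K3 at 0.96, 0.85 and 0.80.

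Of 59 genes of collagens and their modifying enzymes 8 rose and 2 fell, with a median of 0.05, and 5 of the 8 encode enzymes. The prolyl hydroxylase genes P4HA2 and P4HA1 rose by 1.10 ± 0.09 and 0.71 ± 0.07, and the lysyl hydroxylase genes PLOD2, PLOD1 and PLOD3 by 0.83, 0.71 and 0.48. P4HA2 read 9.57, 9.59 and 9.35 in control and 10.63, 10.57 and 10.61 after heat shock, and the 3 other probe sets of PLOD2 rose too. The heat shocked arrays of P4HA2 hardly differed. COL1A1, COL7A1 and COL4A1 rose by 0.78, 0.75 and 0.48, COL1A1 from near the floor. The count of rises was 8 without any 1 of the 6 arrays. Of 44 integrin and focal adhesion genes 7 rose and 2 fell; KANK4, ITGB8, ITGA2 and PXN rose by 1.56, 1.19, 0.83 and 0.59, and KANK1 fell by 0.47. KANK4 and ITGB8 started under the floor, and no other probe set of either passed. HAS2 and HAS3, hyaluronan synthase genes, rose by 0.63 and 0.45, and PLAUR, the urokinase receptor gene, by 0.71 ± 0.08. KRT80 was the single keratin gene to rise, by 1.14 ± 0.10, and CLDN12 led the tight junction genes at 0.72. The actin-linked coactivator genes MRTFA and MRTFB moved by 0.49 and -0.88, and FHL2, an SRF target, rose by 1.02 ± 0.09.

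In metabolism, 34 of 357 solute carrier genes fell and 15 rose (9.52% and 4.2%, near the 7.92% and 4.93% of all genes); without control replicate 2 the falls were 14. After SLC5A3 the rises were led by SLC3A1, a subunit of the cystine transporter of the kidney, at 1.26 ± 0.11, and SLC25A37, which imports iron into mitochondria, at 0.90. The vitamin C transporter gene SLC23A2 fell by 0.68, as did 3 of its 6 other probe sets. Of 29 genes of cholesterol and fatty acid synthesis 7 fell and 3 rose: SQLE and NSDHL fell by 0.42 and 0.35, and HMGCS1, HSD17B7 and PMVK rose by 0.70, 0.60 and 0.40. The falls were 2 without control replicate 1. PFKFB4, a regulator of glycolysis, rose by 1.09 ± 0.13, and the 3 falls among 37 glycolysis and hypoxia genes were 1 without control replicate 1. Of 158 ion channel genes 4 rose and 8 fell (2.53% and 5.06%), shares under those of all genes. The median control level of the list was low, at 3.96. Of genes at 3.40 to 5.06, 2.26% rose and 1.71% fell, so the list was not under genes of such levels. KCNF1 led the rises at 0.78, and KCNJ2 and KCNK5 led the falls at -0.66 and -0.61. Without control replicate 1 there were 2 rises and 4 falls, and KCNK5 lost its call under 6 alternatives.

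The monolayers that were wounded after heat shock or wounded alone give a similar contrast on 6 other arrays. These cells were kept for 4 h after wounding, whereas the collection time after heat alone was not given. Both contrasts came from 1 model with a shared residual variance per gene, so calls in both are not independent. With only the arrays compared, the 2704 calls in wounded cells became 1663. There 1144 genes (6.31%) were higher and 1560 (8.6%) lower after heat shock. Of the 894 rises in unwounded cells 877 (98.1%) had the same sign in wounded ones and 649 (72.6%) were called, which is 56.7% of the 1144. Of the 1436 falls 1387 (96.6%) had the same sign and 940 (65.5%) were called, 60.3% of the 1560, and 4 were called in the opposite direction. Rises of 2-fold or more made up 0.485% and such falls 0.0662% of all genes in wounded cells. Of the 97 rises of 2-fold or more in unwounded cells 93 were called again, and so were all 7 such falls. Among genes not called in unwounded cells 74.2% of positive and 55.1% of negative differences kept their sign. Over the 18132 genes the differences correlated at 0.77, across genes that share the arrays' scaling and are not independent.

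PGF was higher by 3.77 in wounded and 3.38 in unwounded cells, MICB by 2.85 and 2.79, and CYP1B1 differed by -1.25 and -1.47. PHF8, THAP2 and ARL14 had smaller differences in wounded cells, 1.07, 1.53 and 1.60, against 1.73, 2.32 and 2.21. EGR1 differed by -0.01 in wounded cells (limma adjusted p = 0.991), NR4A1 by 0.11, KLF4 by 0.05 and PTGER4 by -0.06, none past the threshold. KDM6B was higher by 1.29 in wounded against 0.52 in unwounded cells. A test of the difference between both contrasts was passed by FGF1 alone (0.00552% of genes), so none of the other gaps was shown to differ.

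**Figure D5:**
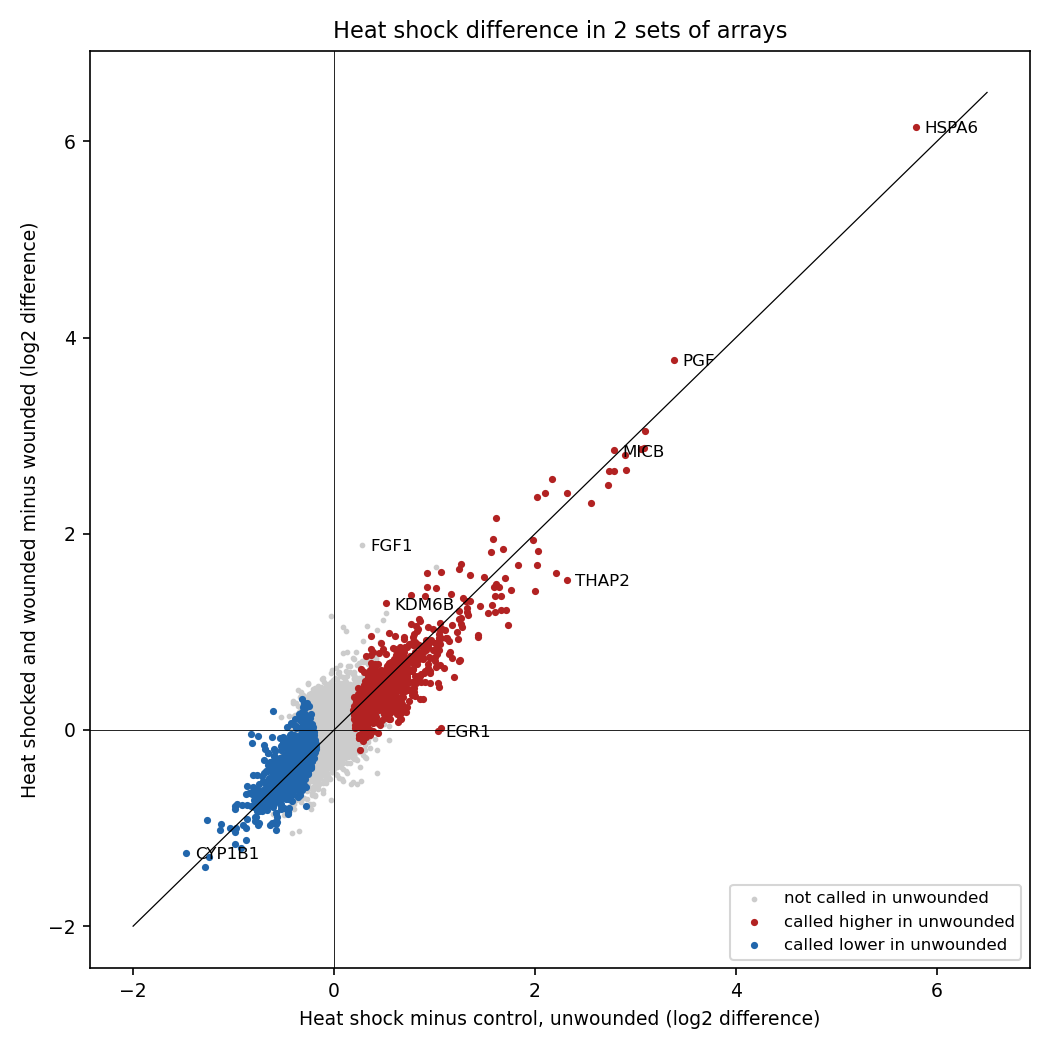
Log2 difference after heat shock in unwounded cells (horizontal axis, 3 against 3 arrays) and in wounded cells (vertical axis, the other 6 arrays) for 18132 genes; colours give the call in unwounded cells and the diagonal marks equal differences. HSPA6, PGF and CYP1B1 lie near the diagonal, and FGF1 lies above it, at 0.28 and 1.89.

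Wounding alone was compared with the same control arrays, so its values are given only beside those of heat shock. For genes raised by heat shock the wounded minus control difference was 3.33 for ANGPTL4 (heat shock 1.24), 2.99 for EGR1 (1.03), 1.89 for MMP10 (1.58) and 1.80 for MMP1 (1.61). It was 1.82 for ARL14, 1.43 for GEM and 0.97 for RRAD. For PGF it was -0.40, for MICB -0.31, for DEDD2 0.10, for PHF8 0.03 and for MRPL18 -0.02. Among falls EDN2 stood at -1.45 after wounding and -1.26 after heat shock, and CCNE2 at -0.52 and -0.99.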

How the data were processed

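RNA of A549 monolayers (100 ng of total RNA per array, per the labels' protocols) was measured on 12 PrimeView arrays. The deposited values are log2 levels per probe set. Per the submitters' processing notes, the authors used RMA within Affymetrix Expression Console. RMA gives all arrays the same distribution of probe intensities, though not of probe set levels, so a shift common to all genes cannot be seen. The version was not given in the sources used here. No detection p was at hand, and array number limits the precision. Of 49293 probe sets, 44987 had 1 gene symbol in the platform annotation, 1832 had several and 2473 were not listed; 1 with a missing value was left out. A gene took the probe set whose mean over 12 arrays was highest (18132 genes, 11734 with more than 1 probe set). For 12 of the 1777 called genes with more than 1 probe set another one passed in the opposite direction. Group means over the 12 arrays were modelled in R 4.3.3 with limma 3.58.1 (lmFit and eBayes, 8 residual degrees of freedom), and a call is an adjusted p (Benjamini-Hochberg) under 0.05. Every adjusted p is from limma. Values after ± are SE. The fit was tested on simulated data: 33 of 50 genes changed by 0.5, 99 of 100 by 1 and 50 of 50 by 2 were called for heat shock against control, with 18132 genes.

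The genes named were the 25 largest rises and 25 largest falls outside the chaperones among calls without overlap, all falls of 2-fold or more, up to 5 called members of each of 85 lists and 13 fixed genes; the text gives many of them, and other list members named beside them were chosen after their values were seen. The comparison, the lists and the rule were chosen with earlier results of these data known. No list was tested as a set, and 1 list is not reported here. Names were matched to RefSeq; promoters are from RefSeq (GRCh38.p14), and their restriction to protein-coding genes was chosen after 79.6% of all genes were found to have one. Deviations of same-numbered control and heat shocked arrays correlated at 0.125, 0.053 and 0.187. For replicates 1 and 2 taken crosswise the values were 0.105 and -0.031. For replicate 3 against replicate 1 or 2 they were -0.182, -0.02, -0.083 and -0.15. All same-numbered values were small, and the numbers were not taken to pair the arrays. A shared effect of the description code was not tested.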

Additional observations from a re-analysis of the deposited data

Results flagged for a closer look

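FGF1 was the single gene whose heat shock difference was itself found to differ between unwounded and wounded cells. The difference between both contrasts was 1.62 on the log2 scale (limma interaction). No gene passed that test with the mean of all probe sets or with only genes above a mean level of 5. The same held with replicates 1 and 2 averaged and with the S2 arrays alone. In unwounded cells FGF1 differed by 0.28 ± 0.12 (SE, n = 3; adjusted p = 0.152), and in wounded cells it was higher by 1.89 (adjusted p = 1.42e-06). Its control levels of 3.25, 3.38 and 3.40 lay under the floor of 4.53, and none of its 3 other probe sets passed in unwounded cells.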

How the results depend on the processing

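The 2330 calls became 1114 at an adjusted p under 0.01 (544 higher, 570 lower) and 919 with replicates 1 and 2 averaged to 1 sample (463 and 456), 907 of them among the 2330. Leaving out 1 array of the 2 groups gave 1438 to 2182 calls in all, 639 to 973 higher and 772 to 1209 lower; the lowest were without heat shocked replicate 1 (1438), control replicate 1 (1450) and control replicate 2 (1530). With the replicate number as a block, 2370 genes were called, 2162 of them shared, though the numbers were not shown to pair the arrays. With S2 against S3 as a block, 2615 genes were called, 2302 of them shared. Leaving out the array of the heat shocked and wounded group that stood apart gave 2594 calls, and the S2 arrays alone 1837. In wounded cells the 2704 calls became 1279 at 0.01, 1663 with only the arrays compared, 1104 with replicates 1 and 2 averaged and 1649 without wounded replicate 1, the lowest of 1649 to 2839 without 1 array. The 1 interaction call became 0 with the mean of all probe sets, with genes above a mean level of 5, with replicates averaged and with the S2 arrays alone, and 2 with an intensity trend (1 of them lower). Of the 350 called genes named by the rule, 192 passed under every alternative. SLC30A1 (-0.02) and DHX57 (0.08) reversed with the mean of all probe sets; the cause was not tested. Of 3230 counts of list members under alternatives, 751 moved by more than 1.5 times. Depth is not defined for arrays; genes under the floor of 4.53 limit the folds.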
